A study of Cucumis melo with 24 samples.

Results

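Flesh of cmnac-nor mutant melon fruit was compared between 35 and 25 days after pollination (DAP), with 3 RNA libraries at each age. These 6 libraries are chosen by genotype and age from 24, which cover wild type (WT) and the mutant in 8 groups of 3 libraries, 1 for each genotype at each of the ages 15, 25, 35 and 45 DAP. Both groups carry the cmnac-nor mutation and came from fruit flesh of Cucumis melo. They differ only in age, as far as the labels go. The sources used here do not give the nature of the mutation, the cultivar or the number of plants. The labels do not tie the 3 libraries of a group to different fruits or plants. A p-value here therefore reflects the spread among libraries alone, pooled over all 24, and that spread may be technical. Of 29980 genes in the table, 17658 reached 1 TPM, a measure of transcript abundance scaled for gene length and library, in at least 3 of the 24 libraries and were tested.

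Melon flesh softens, sweetens, loses chlorophyll and builds carotenoids and esters as it ripens, and ethylene made from 1-aminocyclopropane-1-carboxylate (ACC) drives much of this in climacteric fruit. NAC-domain factors of the NOR type stand upstream of this programme, and tomato fruit with a defective NOR gene fail to ripen. The comparison asks which transcripts still change with age in flesh in which this regulator is mutated. Levels below are TPM, the abundance of a transcript relative to all transcripts of its library, and changes are log2 differences of TPM + 1, 35 minus 25 DAP, with their standard error (SE). A gene is said to rise or fall where its limma p, adjusted over all genes tested, was under 0.05. TPM of a bulk sample cannot tell fewer cells of a type from less RNA per cell.

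The libraries resembled each other within each age. Across tested genes the log2 values of libraries at 25 DAP correlated at 0.957 to 0.971 and those at 35 DAP at 0.925 to 0.968, against 0.894 to 0.937 between the ages. The lowest values within an age all involved replicate 2 at 35 DAP (0.925 and 0.948). The listed values summed to between 930772 and 948301 per library, and 15365 to 15823 genes reached 1 TPM in a library. The read depth is unknown.

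Markers of other tissues were checked because flesh can carry vascular, seed and rind cells. Phloem transcripts were plain in all 6 libraries: the 33 phloem genes tested summed to 7065, 6170 and 9376 TPM at 25 DAP and 4112, 7468 and 5573 TPM at 35 DAP, and of the 39 phloem genes deposited, 3 were listed at 0 in all 24 libraries. Replicate 2 at 35 DAP stood out in sieve-tube genes. The 10 SIEVE ELEMENT OCCLUSION B genes, whose relatives encode filament proteins of sieve tubes, summed to 168, 72.6 and 70.4 TPM at 25 DAP and to 12.4, 206 and 43.7 TPM at 35 DAP, so the ages overlapped and this library was the highest of all. Of the phloem genes tested 0 rose and 7 fell (median -0.29), 1 of which is a phosphatase regulator caught by its description, and without that replicate 13 fell. Storage-protein genes that define seeds were close to nothing. The 2S albumin genes were listed at 0 in all 6 libraries, the vicilin genes reached at most 1.35 TPM and the 11S globulin genes 6.98 TPM, although oleosin-type genes reached 106 TPM. The whole seed list, with 46 late embryogenesis abundant genes among the 57 tested, was far more abundant. It summed to 4800, 5844 and 4680 TPM at 25 DAP and 3330, 4445 and 3574 TPM at 35 DAP, lower in every later library. Of 57 seed genes tested 2 rose and 7 fell, of 70 rind and cuticle genes 4 rose and 7 fell, and of 34 organelle and ribosomal RNA genes 1 rose and 1 fell. In this order 15.8%, 15.7% and 5.88% were called, and 21.2% of the phloem genes, against 20.5% of all genes. Without single libraries the rind falls numbered 2 to 4, except without replicate 3 at 25 DAP, and the seed falls 4 without replicate 1 at 25 DAP. Any part of these tissues in the changes below was not tested.

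Between 25 and 35 DAP, 3622 of the 17658 genes tested changed, which is 20.5% of them. Of these 1901 rose (10.8% of genes tested) and 1721 fell (9.75%), and 1313 changed by at least 2-fold, 595 up and 718 down. The median change over all genes was -0.02. Without replicate 2 at 25 DAP the number of falling genes was 1097. The gene whose mutation names the line was still transcribed. CmNAC-NOR (MELO3C016540.2) read 505, 482 and 642 TPM at 25 DAP and 1216, 1028 and 1213 TPM at 35 DAP, so all libraries at 35 DAP were higher than all at 25 DAP. Its change did not pass the test (log2 change 1.09, SE 0.52, adjusted p = 0.15) except in the fit to these 6 libraries alone (adjusted p = 0.0163). The test takes its spread from all 8 groups, and the mutant at 15 DAP read 149 ± 153 TPM (SD, n = 3). The identifier of CmNAC-NOR is known from published work, and a mutation can spare the transcript, so its level does not check the genotype.

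Class I small heat shock proteins, chaperones that hold unfolding proteins, gave the largest falls. The class I heat shock protein MELO3C034100.2 read 1452, 1497 and 366 TPM at 25 DAP and 0, 0 and 15.7 TPM at 35 DAP (log2 change -8.50, SE 0.89, adjusted p = 5.08e-06). A second, MELO3C001614.2, read 1175, 1456 and 929.7 TPM at 25 DAP and 6.17, 12.7 and 0 TPM at 35 DAP (log2 change -7.98, SE 1.12, adjusted p = 8.4e-05). For both genes every library at 25 DAP was far above every library at 35 DAP, and some libraries at 35 DAP were listed at 0. The 17.5 kDa class I protein MELO3C027124.2 read 2003, 2065 and 1013 TPM at 25 DAP and 23.2, 37.4 and 35 TPM at 35 DAP, again with no overlap (log2 change -5.65, SE 0.68, adjusted p = 2.01e-05). At the flanking ages of the mutant, these 3 genes stood at 43.6 ± 32.7, 9.44 ± 16.4 and 23.6 ± 17.1 TPM at 15 DAP (SD, n = 3). At 45 DAP MELO3C034100.2 and MELO3C027124.2 stood at 17.2 ± 4.58 and 9.21 ± 1.08 TPM and MELO3C001614.2 was listed at 0 in all 3 libraries, so the high values in the mutant belonged to 25 DAP. WT was also highest at 25 DAP, at 2382 ± 1357, 1524 ± 445 and 813 ± 443 TPM for MELO3C034100.2, MELO3C001614.2 and MELO3C027124.2. All 3 genes fell in WT too by 35 DAP (log2 changes -4.03, -3.52 and -2.72, adjusted p = 0.00143, 0.0174 and 0.00372).

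The other large falls came from metabolism and regulation. Pyruvate decarboxylase MELO3C009145.2, which turns pyruvate into acetaldehyde, read 1788, 1910.0 and 1543 TPM at 25 DAP and 37, 46.9 and 45.3 TPM at 35 DAP (log2 change -5.31, SE 0.47, adjusted p = 7.99e-07), and its lowest library at 25 DAP was far above the highest at 35 DAP. A gene described only as a putative transcription factor, MELO3C004098.2, read 63.1, 87.7 and 26.1 TPM at 25 DAP and 0.31, 1.83 and 0.1 TPM at 35 DAP (log2 change -5.07, SE 0.39, adjusted p = 1.45e-07). It had been higher still at 15 DAP, at 310 ± 134 TPM. The FLOWERING LOCUS T-like gene MELO3C010015.2, of the florigen family, read 90.7, 18 and 167 TPM at 25 DAP and 0.07, 4.55 and 2.01 TPM at 35 DAP (log2 change -4.67, SE 0.61, adjusted p = 4.25e-05). These libraries did not overlap, but they spread widely within each age.

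IAA16-like MELO3C025308.2, of the Aux/IAA repressors of auxin response, read 55.6, 46 and 48.4 TPM at 25 DAP and 0.99, 0.86 and 1.27 TPM at 35 DAP, with tight replicates (log2 change -4.64, SE 0.22, adjusted p = 2.35e-10). It was low at every other age of the mutant and averaged 2.32 TPM or less in every WT group. An acyl-[acyl-carrier-protein] desaturase, MELO3C008413.2, of the family that sets the first double bond in plastid fatty acids, read 66.9, 87.2 and 76.3 TPM at 25 DAP and 2.38, 1.99 and 3.56 TPM at 35 DAP (log2 change -4.43, SE 0.49, adjusted p = 7.91e-06). It was back at 97 ± 54.8 TPM at 45 DAP. ACC oxidase MELO3C004619.2, of the family that makes ethylene from ACC, read 156, 209.8 and 85.4 TPM at 25 DAP and 4.97, 5.61 and 13.2 TPM at 35 DAP (log2 change -4.11, SE 0.59, adjusted p = 0.000105), and early nodulin 93 MELO3C004522.2 read 36, 32.3 and 26.1 TPM at 25 DAP and 1.37, 1.03 and 0.44 TPM at 35 DAP (log2 change -4.08, SE 0.40, adjusted p = 2.4e-06). Both sets of libraries were separate.

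**Figure D1:**
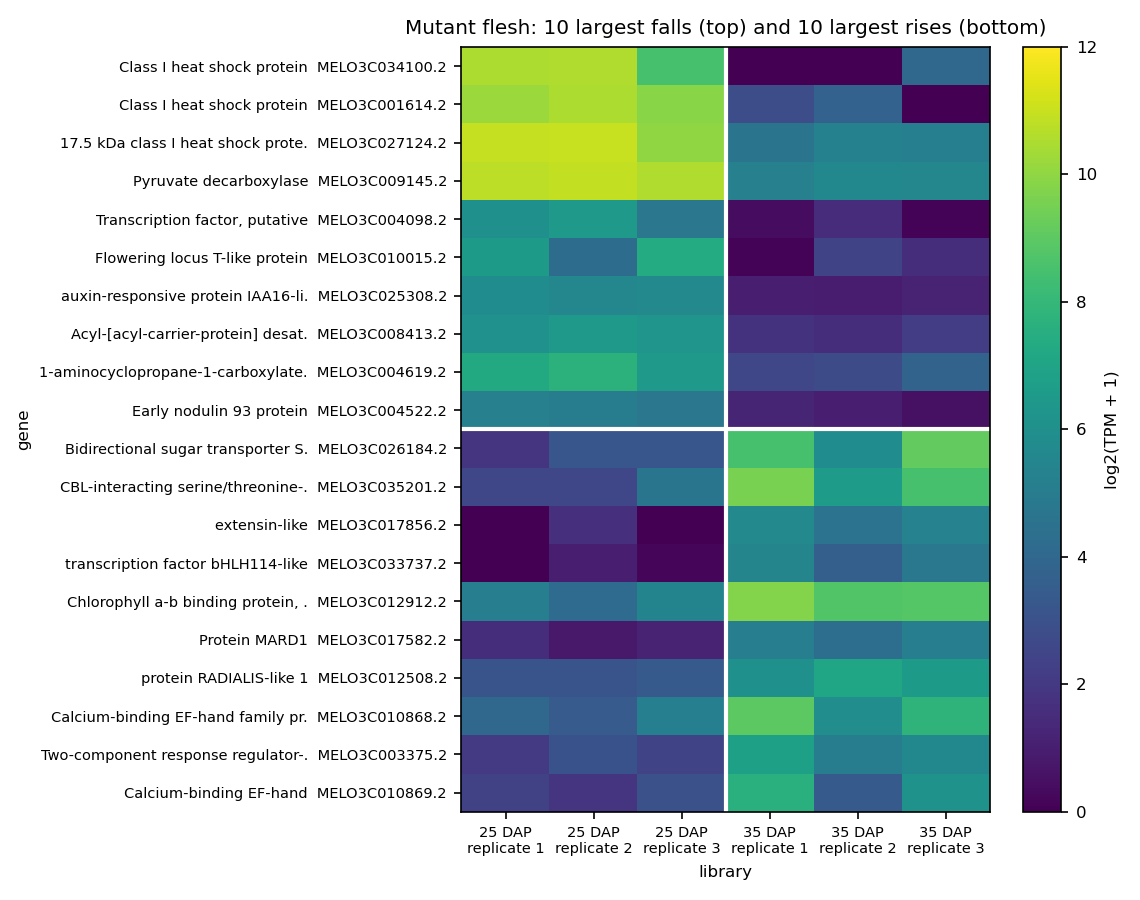
Level of the 20 genes with the largest changes in the 6 mutant libraries. Rows are genes (10 falls above the white line, 10 rises below it), columns are libraries, and colour is log2(TPM + 1) from 0 to 12. The genes were chosen for having no overlap between the ages, so their separation is given. Replicate 2 at 35 DAP is the lowest of its age in 9 of the 10 rises.

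The largest rises were those of a sugar transporter and a protein kinase. The SWEET sugar transporter MELO3C026184.2, of a family that lets sugars pass membranes down their gradient, read 2.45, 8.14 and 8.25 TPM at 25 DAP and 363, 56.9 and 552 TPM at 35 DAP (log2 change 5.09, SE 1.14, adjusted p = 0.00419). The CBL-interacting protein kinase MELO3C035201.2, of a kinase family that acts with calcium sensors, read 4.95, 4.9 and 24.5 TPM at 25 DAP and 759, 97.3 and 360.1 TPM at 35 DAP (log2 change 4.96, SE 0.86, adjusted p = 0.000634). The calcium-binding EF-hand genes, at the lower end of the 10 largest rises, MELO3C010868.2 and MELO3C010869.2 read 503, 57.1 and 220.3 and 195, 9.56 and 67.7 TPM at 35 DAP against 15.4, 9.91 and 35.2 and 4.17, 2.62 and 6.98 TPM at 25 DAP. In all 4 genes replicate 2 at 35 DAP was the lowest of its age, yet above every library at 25 DAP. The EF-hand rises (log2 changes 3.32 and 3.30, SE 0.79 each) did not pass in the fit to these 6 libraries alone (adjusted p = 0.0685 and 0.109).

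A wall protein and regulators were also among the 10. The extensin-like gene MELO3C017856.2, of a family of structural wall proteins, read 0, 2.04 and 0 TPM at 25 DAP and 49.9, 22.8 and 39 TPM at 35 DAP (log2 change 4.65, SE 0.71, adjusted p = 0.000181). The bHLH114-like factor MELO3C033737.2 read 0, 1.03 and 0.14 TPM at 25 DAP and 43.7, 11.4 and 26.6 TPM at 35 DAP (log2 change 4.23, SE 0.39, adjusted p = 1.21e-06), and it was listed at 0 in WT from 25 DAP on. MARD1 MELO3C017582.2, whose Arabidopsis relative is tied to abscisic acid and seed dormancy, read 2.01, 0.78 and 1.27 TPM at 25 DAP and 34.6, 18.9 and 33.5 TPM at 35 DAP (log2 change 3.66, SE 0.63, adjusted p = 0.000586). RADIALIS-like 1 MELO3C012508.2, a small MYB-related factor, read 7.79, 7.78 and 9.64 TPM at 25 DAP and 63.8, 137 and 91.6 TPM at 35 DAP (log2 change 3.33, SE 0.50, adjusted p = 0.000172). The APRR2-type regulator MELO3C003375.2, whose relatives are tied to the pigmentation of cucurbit and tomato fruit, read 3.09, 7.26 and 4.43 TPM at 25 DAP and 114, 32.1 and 47.3 TPM at 35 DAP (log2 change 3.32, SE 0.73, adjusted p = 0.00372). The lack of overlap in these large changes was part of how they were chosen. Most list members named below were picked as called genes with the smallest adjusted p, so their separation between the ages largely follows from that choice. It is description and no further evidence, and the share of all genes tested without overlap is not given here. The chlorophyll a-b binding protein among the 10 largest rises is described with photosynthesis.

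The heat shock and chaperone list holds small heat shock proteins, HSP70, HSP90, DnaJ and heat stress factors. Across it 51 of 241 genes tested rose and 25 fell (median 0.04), 31.5% called against 20.5% of all genes. Split by description after the values were seen, the class I small proteins had 4 of 21 higher and 7 lower, classes II to IV 0 of 5 higher and 2 lower, HSP70 7 of 20 higher and 0 lower, HSP90 3 of 9 higher and 1 lower, and DnaJ 23 of 95 higher and 7 lower. By the same split the heat stress factors were balanced, with 3 of 22 higher and 3 lower (median -0.10). The list summed to 19238, 20198 and 17437 TPM at 25 DAP and 12886, 14114 and 12834 TPM at 35 DAP, lower in every library of the later age. Most abundant among the falling members was MELO3C034119.2, another 17.5 kDa class I protein, at 2862, 2303 and 2468 TPM at 25 DAP and 225, 444 and 405 TPM at 35 DAP (log2 change -2.88, SE 0.73, adjusted p = 0.00974).

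Several members rose. The class I protein MELO3C020589.2 read 15.7, 14.2 and 17.5 TPM at 25 DAP and 82.2, 92.5 and 73.4 TPM at 35 DAP (log2 change 2.32, SE 0.16, adjusted p = 4.98e-08), the reverse of its relatives above. HSP70 MELO3C024086.2 read 0.84, 0.93 and 1.1 TPM at 25 DAP and 14.6, 12 and 14.5 TPM at 35 DAP (log2 change 2.90, SE 0.22, adjusted p = 9.83e-08), and the DnaJ co-chaperone MELO3C024324.2 read 5.11, 6.47 and 7.72 TPM at 25 DAP and 28.1, 32.7 and 30.4 TPM at 35 DAP (log2 change 2.09, SE 0.18, adjusted p = 7.58e-07). In these genes the replicates lay close together and the ages did not overlap. HSP90 MELO3C011021.2 read 27.1, 30.1 and 26.1 TPM at 25 DAP and 138, 96.7 and 139 TPM at 35 DAP (log2 change 2.11, SE 0.25, adjusted p = 1.49e-05), and the heat stress factor A-6b-like gene MELO3C015804.2 read 2.87, 1.63 and 4.56 TPM at 25 DAP and 31.3, 12.7 and 21.2 TPM at 35 DAP (log2 change 2.48, SE 0.32, adjusted p = 3.43e-05). These last 2 and MELO3C034119.2 were chosen after their values were seen.

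Calls among genes of ethylene perception and signalling were all falls. Of 16 genes tested 0 rose and 6 fell, with a median of -0.41 and 37.5% called against 20.5% of all genes. The ethylene receptor MELO3C015961.2 read 885, 892 and 889 TPM at 25 DAP and 86.8, 69.2 and 82.4 TPM at 35 DAP, with tight groups and a wide gap (log2 change -3.47, SE 0.13, adjusted p = 1.12e-11). It stood at 104 ± 10.2 TPM at 15 DAP and 257 ± 43.7 TPM at 45 DAP, so 25 DAP was its peak in the mutant. The receptor MELO3C006451.2 read 200.5, 196 and 202 TPM at 25 DAP and 122, 66.1 and 103 TPM at 35 DAP (log2 change -1.08, SE 0.21, adjusted p = 0.0017). EIN3-binding F-box protein 1 MELO3C011260.2, whose Arabidopsis relative marks the ethylene factor EIN3 for breakdown, read 534, 506 and 602 TPM at 25 DAP and 265, 198 and 253 TPM at 35 DAP (log2 change -1.20, SE 0.26, adjusted p = 0.00312). Neither gene overlapped between the ages. In the fit to these 6 libraries alone 3 of the 6 falls passed.

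Ethylene synthesis genes split. Of 28 tested 3 rose and 6 fell (median -0.05), 32.1% called against 20.5% of all genes. In all, 8 of these 9 calls were in genes described as ACC oxidases or ACC oxidase homologs. All 3 rises were among these, and the descriptions alone do not show which of them make ethylene. The ripening-type ACC oxidase 1 MELO3C014437.2, which reached 14358 ± 4601 TPM in WT at 35 DAP, read only 74.5, 102 and 74 TPM at 25 DAP and 4.9, 7.26 and 13.6 TPM at 35 DAP in mutant flesh (log2 change -3.23, SE 0.60, adjusted p = 0.00107). ACC synthase MELO3C016340.2, which makes ACC, read 10.5, 18.4 and 4.67 TPM at 25 DAP and 0.37, 0.03 and 1.56 TPM at 35 DAP (log2 change -2.81, SE 0.41, adjusted p = 0.000133). ACC oxidase MELO3C026436.2 fell from 270 ± 133 to 60.7 ± 41 TPM (log2 change -2.28), though not in the fit to these 6 libraries alone (adjusted p = 0.0827). The ACC oxidase homolog MELO3C022978.2 was higher in all 3 later libraries, at 491, 555 and 531 TPM at 25 DAP and 1408, 1302 and 1482 TPM at 35 DAP (log2 change 1.41, SE 0.47, adjusted p = 0.0392), but its call ended without any 1 of the 6 libraries (adjusted p 0.0727 to 0.1) and at a pseudocount of 0.1 (0.0528) or with no filter on low values (0.0519). ACC synthase MELO3C021182.2, high in WT at 196 ± 170 TPM at 35 DAP, was at 0.25 TPM or less in all 6 mutant libraries. Rises numbered 1 of 28 without replicate 1 or 3 at 35 DAP or replicate 3 at 25 DAP.

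Among the AP2/ERF factors, a family that includes ethylene response factors, 12 of 108 rose and 13 fell (median -0.20). That is 23.1% called, close to the 20.5% of all genes. The list also holds mitochondrial terminator factor genes that share letters with the family's name. The ethylene-responsive factor MELO3C017940.2 read 185, 252 and 189 TPM at 25 DAP and 30.2, 7.77 and 62.6 TPM at 35 DAP (log2 change -3.0, SE 0.46, adjusted p = 0.000211), without overlap, though its adjusted p was 0.054 in the fit to these 6 libraries alone. The factor MELO3C007242.2 read 22.3, 38.2 and 21.4 TPM at 25 DAP and 9.48, 7.42 and 7.81 TPM at 35 DAP (log2 change -1.57, SE 0.21, adjusted p = 6.16e-05), and MELO3C016780.2 rose from 8.4, 3.63 and 6.49 to 14.6, 17.1 and 16.4 TPM (log2 change 1.30, SE 0.24, adjusted p = 0.000961). Falls in this list numbered 8 without replicate 1 at 25 DAP and 5 in the fit to the 6 libraries.

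Abscisic acid genes moved both ways. Of 28 tested 9 rose and 4 fell (median 0.20), 46.4% called against 20.5% of all genes. All 7 calls among 11 receptor genes, a subset chosen after the values were seen, were rises. The receptor MELO3C026019.2 read 1.59, 4.37 and 1.37 TPM at 25 DAP and 19.6, 26.3 and 18.7 TPM at 35 DAP (log2 change 2.80, SE 0.42, adjusted p = 0.000153), and MELO3C003408.2 read 1.58, 1.11 and 1.51 TPM at 25 DAP and 4.75, 19.4 and 12.6 TPM at 35 DAP (log2 change 2.29, SE 0.33, adjusted p = 9.92e-05). The more abundant receptor MELO3C013854.2 read 70.7, 88.4 and 57.8 TPM at 25 DAP and 181, 322 and 222 TPM at 35 DAP (log2 change 1.71, SE 0.28, adjusted p = 0.000358). In all 3 the later libraries lay above the earlier ones, and WT showed no call over the same ages. Enzymes of the hormone included falls. Abscisic acid 8'-hydroxylase 1 MELO3C016219.2, of the class that inactivates the hormone, read 126, 142 and 97.4 TPM at 25 DAP and 10.2, 3.23 and 21.2 TPM at 35 DAP (log2 change -3.58, SE 0.76, adjusted p = 0.00299) and was chosen after its values were seen. The 9-cis-epoxycarotenoid dioxygenase MELO3C027057.2, of the class that starts its synthesis from carotenoids, read 95.9, 36.2 and 72.1 TPM at 25 DAP and 29.8, 2.24 and 6.51 TPM at 35 DAP (log2 change -2.82, SE 0.65, adjusted p = 0.00529), but not past the threshold in the fit to these 6 libraries alone (adjusted p = 0.0967). Rises numbered 5 without replicate 3 at 35 DAP or replicate 1 at 25 DAP, and falls 2 without replicate 3 at 25 DAP.

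**Figure D2:**
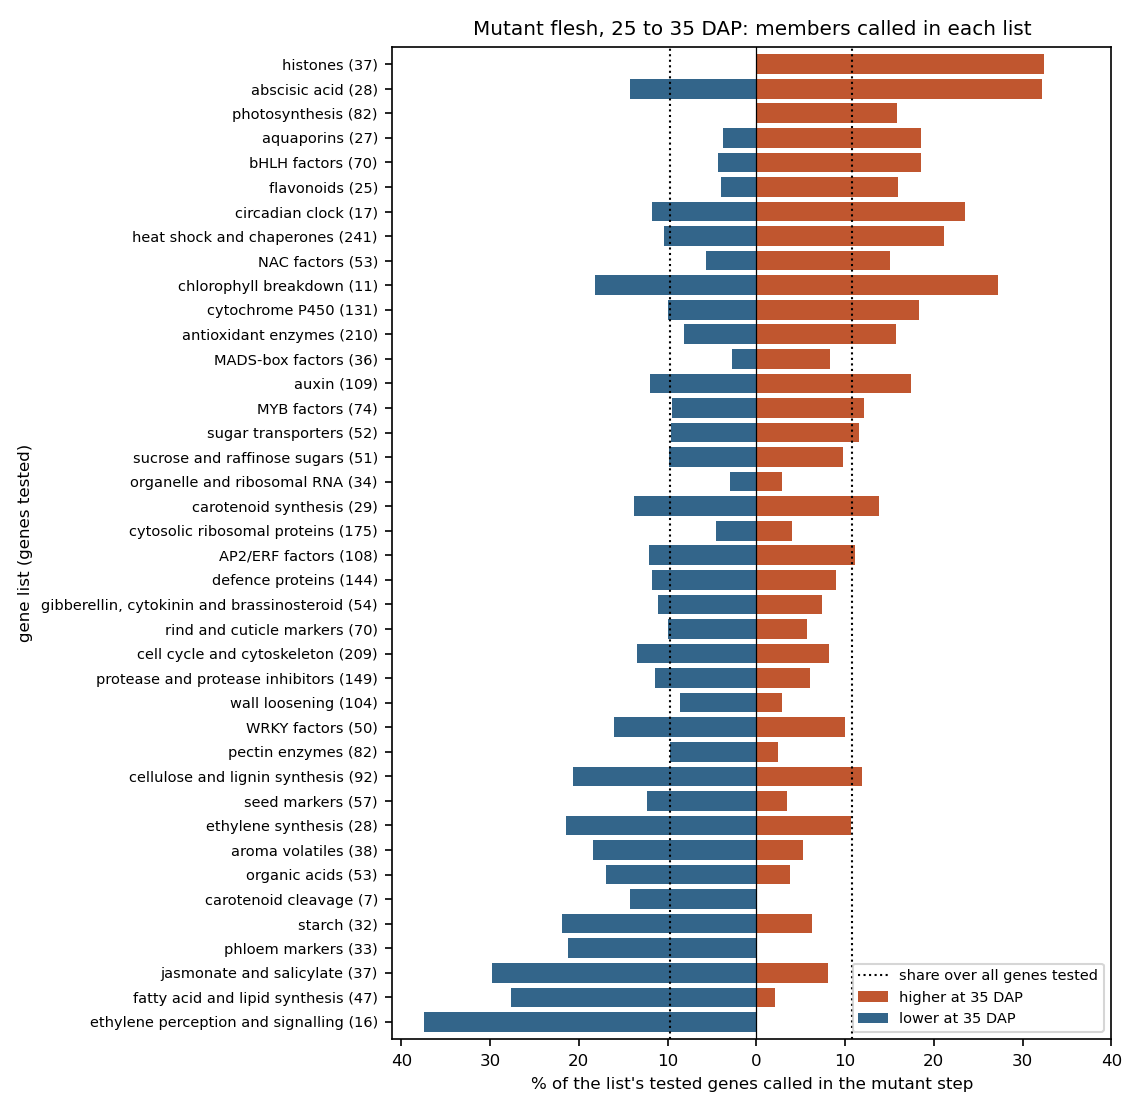
Share of each gene list that was called in the mutant step. Bars to the right give the percentage of the list's tested genes that were higher at 35 DAP, bars to the left the percentage that were lower, and dotted lines mark the shares over all genes tested (10.8% and 9.75%). Histones and photosynthesis had 0 falls, and ethylene perception and phloem markers had 0 rises.

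Genes of fermentation and aroma mostly fell where they changed. Of 38 aroma genes, which include decarboxylases, alcohol dehydrogenases, lipoxygenases and acyltransferases, 2 rose and 7 fell (median -0.10). Their share called was 23.7%, close to the 20.5% of all genes. The alcohol dehydrogenase-like gene MELO3C023685.2, which interconverts aldehydes and alcohols, was among the most abundant falling transcripts, at 6629, 8713 and 4978 TPM at 25 DAP and 799, 985 and 898 TPM at 35 DAP (log2 change -2.89, SE 0.50, adjusted p = 0.000641). A second pyruvate decarboxylase, MELO3C007227.2, read 352, 342 and 338 TPM at 25 DAP and 129, 118 and 129 TPM at 35 DAP (log2 change -1.45, SE 0.19, adjusted p = 5.01e-05), and alcohol dehydrogenase-like MELO3C022399.2 read 188, 180.3 and 194 TPM at 25 DAP and 105, 110.4 and 97.3 TPM at 35 DAP (log2 change -0.84, SE 0.11, adjusted p = 4.9e-05). All 3 were separate between the ages. Lipoxygenases, a family that oxidises fatty acids, were mixed. MELO3C014482.2 rose, at 82.9, 65.9 and 79.1 TPM at 25 DAP and 257, 169 and 205 TPM at 35 DAP (log2 change 1.44, SE 0.34, adjusted p = 0.00588). Another abundant lipoxygenase fell from 153 ± 80.4 to 36.5 ± 27.9 TPM (log2 change -2.51, SE 0.76, adjusted p = 0.0252). A further one, at 264 ± 62 and 250 ± 112 TPM, was not called (log2 change -0.14, adjusted p = 0.924).

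The ester and amino acid genes that dominate ripe WT flesh stayed low. Benzyl alcohol O-benzoyltransferase MELO3C024771.2 reached 19771 ± 1828 TPM in WT at 35 DAP, and read 2.31, 3.69 and 80.8 TPM at 25 DAP and 4.21, 3.11 and 2.85 TPM at 35 DAP in mutant fruit, a log2 change of -1.32 with an SE of 0.97 and an adjusted p of 0.361. Replicate 3 at 25 DAP was the exception among these libraries, and its partner MELO3C024766.2 read 0.2, 0.37 and 13.5 TPM there and 0.29, 0.45 and 0.27 TPM at 35 DAP. Branched-chain aminotransferase MELO3C010776.2, which feeds branched esters, read 2.93, 3.77 and 33 TPM at 25 DAP and 25.4, 3.62 and 13.1 TPM at 35 DAP and did not pass the test (log2 change 0.48, SE 0.79, adjusted p = 0.723), against 11399 ± 2575 TPM in WT.

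Fatty acid synthesis, which supplies membranes and lipoxygenase substrates, had 1 of 47 genes higher and 13 lower (median -0.11). It had 29.8% called, against 20.5% of all genes. 3-oxoacyl-[acyl-carrier-protein] reductase MELO3C009846.2 read 73, 67.4 and 74.6 TPM at 25 DAP and 26, 29.6 and 21.9 TPM at 35 DAP (log2 change -1.44, SE 0.18, adjusted p = 2.17e-05), and acetyl-CoA carboxylase 1-like MELO3C022793.2, of the enzyme that opens the pathway, read 12.6, 11.6 and 13 TPM at 25 DAP and 5.79, 4.93 and 6.13 TPM at 35 DAP (log2 change -1.02, SE 0.15, adjusted p = 9.69e-05). Both were separate by a wide margin. Falls numbered 6 without replicate 2 at 35 DAP and 8 without any 1 of 4 other libraries, replicate 3 at 35 DAP and replicates 1, 2 and 3 at 25 DAP.

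Jasmonate and salicylate genes had 3 of 37 higher and 11 lower (median -0.34, 37.8% called against 20.5% of all genes). All 6 calls among the 14 TIFY genes, which encode jasmonate repressors and their relatives, were falls, a subset chosen after the values were seen. TIFY 6B MELO3C015030.2 read 136, 153 and 116 TPM at 25 DAP and 78.2, 88.5 and 82.6 TPM at 35 DAP (log2 change -0.69, SE 0.12, adjusted p = 0.000524). Allene oxide synthase MELO3C010910.2, an early enzyme of jasmonate synthesis chosen after its values were seen, read 286, 163 and 98 TPM at 25 DAP and 47.8, 20.4 and 44.5 TPM at 35 DAP (log2 change -2.20, SE 0.49, adjusted p = 0.00417). Salicylic acid-binding protein 2 MELO3C018425.2, whose tobacco relative releases salicylate from its methyl ester, read 2.05, 1.93 and 2.54 TPM at 25 DAP and 19.7, 17.9 and 18.9 TPM at 35 DAP (log2 change 2.65, SE 0.24, adjusted p = 1.16e-06). The libraries of both ages were separate in each gene. Falls numbered 6 without replicate 2 at 35 DAP or in the fit to these 6 libraries and 7 without replicate 1 at 25 DAP, and rises 5 without replicate 1 at 35 DAP.

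Calls among light-harvesting and photosystem genes were all rises. Of 82 photosynthesis genes tested 13 rose and 0 fell (median 0.18), which is 15.9% called against 20.5% of all genes, so the count was no larger than elsewhere and its direction was one-sided. The chlorophyll a-b binding protein MELO3C012912.2, which binds pigment around the photosystems, read 34.4, 17.2 and 42.3 TPM at 25 DAP and 869, 429.6 and 462 TPM at 35 DAP (log2 change 4.20, SE 0.45, adjusted p = 5.62e-06). A second, MELO3C002727.2, read 21.6, 14.7 and 15.1 TPM at 25 DAP and 164, 246 and 129 TPM at 35 DAP (log2 change 3.29, SE 0.42, adjusted p = 3.66e-05), and the photosystem II repair protein PSB27-H1 MELO3C018748.2 read 4.38, 2.88 and 3.92 TPM at 25 DAP and 20.0, 31.5 and 17.3 TPM at 35 DAP (log2 change 2.31, SE 0.39, adjusted p = 0.000438). All libraries at 35 DAP were above all at 25 DAP. Both binding proteins had been far higher in WT at 25 DAP, at 1452 ± 149 and 2122 ± 598 TPM. The count was 8 without replicate 2 at 35 DAP, and 1 gene fell in the fit to these 6 libraries.

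Chlorophyll breakdown genes, 11 in number, had 3 higher and 2 lower, 45.5% called against 20.5% of all genes. Pheophytinase MELO3C023590.2, which removes the phytol tail from pheophytin, the magnesium-free pigment, read 221, 146 and 310.2 TPM at 25 DAP and 85.2, 33.1 and 65.4 TPM at 35 DAP (log2 change -1.90, SE 0.36, adjusted p = 0.00122). STAY-GREEN MELO3C005616.2, which helps to take magnesium from chlorophyll, read 24.2, 21.5 and 27.5 TPM at 25 DAP and 46, 39.6 and 37.9 TPM at 35 DAP (log2 change 0.74, SE 0.18, adjusted p = 0.00742), far below its 513 ± 109 TPM in WT at 35 DAP. The red chlorophyll catabolite reductase-like gene MELO3C020913.2, of a later step, read 130.3, 117 and 115 TPM at 25 DAP and 208, 357 and 298 TPM at 35 DAP (log2 change 1.21, SE 0.30, adjusted p = 0.00737). None of the 3 overlapped between the ages.

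Carotenoid synthesis genes moved both ways, but not its entry steps. Of 29 genes tested 4 rose and 4 fell (median 0.07, 27.6% called against 20.5% of all genes). Phytoene synthase MELO3C025102.2, the entry step, read 62.9, 44.8 and 60.8 TPM at 25 DAP and 58.6, 62.7 and 68.4 TPM at 35 DAP (log2 change 0.18, SE 0.20, adjusted p = 0.563), and phytoene desaturase MELO3C017772.2 read 89.1, 81 and 111 TPM at 25 DAP and 129, 69.3 and 103 TPM at 35 DAP (log2 change 0.07, adjusted p = 0.89). Their libraries overlapped. The supply enzyme 1-deoxy-D-xylulose 5-phosphate reductoisomerase MELO3C026292.2 fell, at 402, 335 and 538 TPM at 25 DAP and 132, 125 and 159 TPM at 35 DAP (log2 change -1.59, SE 0.35, adjusted p = 0.00401). Beta-carotene 3-hydroxylase MELO3C005703.2, which makes xanthophylls, rose, at 27.1, 26.6 and 33.2 TPM at 25 DAP and 53.5, 59 and 52 TPM at 35 DAP (log2 change 0.90, SE 0.20, adjusted p = 0.00428). Another beta-carotene hydroxylase gene fell from 3.73 ± 1.15 to 1.22 ± 0.618 TPM (log2 change -1.11, SE 0.27, adjusted p = 0.00768). A further one, at 57.1 ± 16.4 and 39.7 ± 3.55 TPM, was not called (log2 change -0.47, adjusted p = 0.058). Falls numbered 2 without replicate 2 or 3 at 35 DAP or replicate 1 at 25 DAP, and rises 2 without either of the last 2.

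Cell wall genes had calls both ways. Of 92 cellulose and lignin genes 11 rose and 19 fell (median -0.29), of 82 pectin genes 2 rose and 8 fell (median -0.14) and of 104 wall loosening genes 3 rose and 9 fell (median -0.12). In this order 32.6%, 12.2% and 11.5% were called, against 20.5% of all genes. The pectin and loosening falls were close to or below the 9.75% of all genes. Caffeic acid 3-O-methyltransferase-like MELO3C014091.2, which methylates lignin precursors, read 364, 366 and 375 TPM at 25 DAP and 122, 44 and 116 TPM at 35 DAP (log2 change -2.10, SE 0.33, adjusted p = 0.00027). A phenylalanine ammonia-lyase-like gene, MELO3C017809.2, of the entry to the phenylpropanoids and chosen after its values were seen, read 20.1, 29.6 and 4.25 TPM at 25 DAP and 0.42, 0.06 and 0.95 TPM at 35 DAP (log2 change -3.39, SE 0.67, adjusted p = 0.00177). Pectin acetylesterase MELO3C006917.2 read 61.2, 65.6 and 79.1 TPM at 25 DAP and 19.8, 4.36 and 11.2 TPM at 35 DAP (log2 change -2.64, SE 0.31, adjusted p = 1.77e-05), and the pectin lyase-like gene MELO3C005746.2 read 77.1, 104 and 55.2 TPM at 25 DAP and 13, 18.6 and 16.6 TPM at 35 DAP (log2 change -2.19, SE 0.26, adjusted p = 1.45e-05). The expansin MELO3C017181.2, of proteins that loosen walls, read 35.4, 12.7 and 16.8 TPM at 25 DAP and 2.17, 5.68 and 3.02 TPM at 35 DAP (log2 change -2.24, SE 0.50, adjusted p = 0.00401). In these genes the ages did not overlap. Beta-galactosidase MELO3C015470.2, at 4074 ± 1577 TPM in WT, rose but only to 29.5, 47.4 and 40.2 TPM from 16.3, 11.6 and 14.1 TPM (log2 change 1.40, SE 0.29, adjusted p = 0.00231). Without replicate 1 at 25 DAP the falls in these 3 lists numbered 11, 3 and 3, without replicate 1 at 35 DAP the pectin and loosening falls 5 and 4, and the pectin falls 3 without replicate 3 at 35 DAP or replicate 2 at 25 DAP. Cellulose and lignin rises numbered 7 without either of these last libraries.

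Sugar genes were called about as often as all genes. Of 51 sucrose and raffinose genes 5 rose and 5 fell, and of 52 sugar transporters 6 rose and 5 fell, against 10.8% and 9.75% of all genes. The invertase inhibitor MELO3C022457.2, of proteins that block sucrose cleavage, read 84, 108 and 78.4 TPM at 25 DAP and 787, 469 and 548 TPM at 35 DAP (log2 change 2.70, SE 0.41, adjusted p = 0.000178). Sucrose synthase MELO3C015552.2, which cleaves sucrose to UDP-glucose, read 93.4, 134 and 38 TPM at 25 DAP and 13, 23.4 and 17 TPM at 35 DAP (log2 change -2.11), with an adjusted p of 0.00185 that became 0.0509 in the fit to these 6 libraries alone. Alpha-galactosidase MELO3C011770.2, which frees galactose from raffinose-type sugars, read 36.9, 28.8 and 28.8 TPM at 25 DAP and 4.99, 10.3 and 7.43 TPM at 35 DAP (log2 change -1.96, SE 0.25, adjusted p = 3.04e-05). None of these overlapped between the ages.

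Transporters included the SWEET gene above and a second one, MELO3C002381.2, at 10.7, 8.62 and 31.2 TPM at 25 DAP and 86.4, 190.3 and 147 TPM at 35 DAP (log2 change 3.14, SE 0.67, adjusted p = 0.00297). The ERD6-like 7 transporter MELO3C014417.2, of a family placed in the vacuole membrane, read 129, 191 and 145 TPM at 25 DAP and 31.4, 14.7 and 23.6 TPM at 35 DAP (log2 change -2.73, SE 0.25, adjusted p = 1.13e-06), and the UDP-galactose/UDP-glucose transporter MELO3C012076.2 read 23.8, 24.6 and 26.7 TPM at 25 DAP and 98, 60.9 and 94.9 TPM at 35 DAP (log2 change 1.69, SE 0.16, adjusted p = 2.4e-06). Both were separate between the ages, and in each replicate 2 was the lowest library at 35 DAP. Without replicate 2 at 35 DAP 9 sugar transporters fell, and without replicate 1 at 25 DAP or replicate 1 or 3 at 35 DAP 2 fell. Rises among the sucrose and raffinose genes numbered 2 without replicate 2 at 35 DAP and 3 without replicate 3 at 35 DAP or 2 at 25 DAP.

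Starch and organic acid genes had calls both ways. Of 32 starch genes 2 rose and 7 fell, with a median of 0.03. Of 53 organic acid genes 2 rose and 9 fell, with a median of -0.20. In this order 28.1% and 20.8% were called, against 20.5% of all genes. Isoamylase MELO3C030418.2, which trims branches of starch, read 37.8, 41.9 and 41.5 TPM at 25 DAP and 14.3, 9.17 and 10.5 TPM at 35 DAP (log2 change -1.77, SE 0.19, adjusted p = 7.36e-06). Malate dehydrogenase MELO3C022998.2, which interconverts malate and oxaloacetate, read 1029.8, 1135 and 960.4 TPM at 25 DAP and 576, 473 and 541 TPM at 35 DAP (log2 change -0.97, SE 0.19, adjusted p = 0.00143). Both were lower in every later library than in any earlier one. Falls of starch genes numbered 4 without replicate 3 at 35 DAP or any 1 replicate at 25 DAP, and starch rises 1 without any 1 library except replicate 3 at 25 DAP. In the fit to these 6 libraries 4 starch genes rose and 2 fell, so the balance turned. Falls of organic acid genes numbered 5 without replicate 3 at 35 DAP and 4 in that fit, and their rises 0 without replicate 2 at 25 DAP and 1 without any other single library.

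Transcription factor families had calls in both directions. Of 70 bHLH factors 13 rose and 3 fell, of 53 NAC factors 8 rose and 3 fell, of 74 MYB factors 9 rose and 7 fell, and of 50 WRKY factors 5 rose and 8 fell. In this order 22.9%, 20.8%, 21.6% and 26% were called, against 20.5% of all genes. All but the WRKY factors were thus called about as often as all genes. The bHLH71 gene MELO3C003421.2 read 3.57, 2.81 and 4.89 TPM at 25 DAP and 20.9, 16.2 and 29 TPM at 35 DAP (log2 change 2.26, SE 0.17, adjusted p = 1.36e-07), and bHLH48 MELO3C009653.2 read 23.9, 27.6 and 17.2 TPM at 25 DAP and 70.5, 147 and 85 TPM at 35 DAP (log2 change 2.04, SE 0.23, adjusted p = 9.49e-06). The MYB factor MELO3C020701.2 read 1.82, 2.1 and 2.41 TPM at 25 DAP and 12.6, 20.8 and 18.5 TPM at 35 DAP (log2 change 2.53, SE 0.21, adjusted p = 2.76e-07). All 3 were separate between the ages, and the 2 bHLH genes were low again at 45 DAP (2.05 ± 0.212 and 18.1 ± 3.11 TPM).

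NAC genes moved both ways. NAC73-like MELO3C002628.2 read 21, 16.2 and 27.8 TPM at 25 DAP and 88, 57.4 and 80.4 TPM at 35 DAP (log2 change 1.76, SE 0.21, adjusted p = 2.01e-05), and the NAC gene MELO3C017754.2 read 256, 186 and 315 TPM at 25 DAP and 65.4, 60.8 and 77 TPM at 35 DAP (log2 change -1.86, SE 0.30, adjusted p = 0.000295). The WRKY factor MELO3C011432.2 read 41.9, 38 and 32.8 TPM at 25 DAP and 10.9, 14.3 and 16.5 TPM at 35 DAP (log2 change -1.38, SE 0.20, adjusted p = 9.98e-05), and the WRKY factor MELO3C014305.2 read 8.91, 4.06 and 7.25 TPM at 25 DAP and 16, 22.8 and 15.9 TPM at 35 DAP (log2 change 1.35, SE 0.22, adjusted p = 0.000339). Each pair thus held 1 gene that rose and 1 that fell, without overlap of the libraries. EARLY FLOWERING 3 MELO3C010769.2, of the evening complex of the circadian clock, read 54.9, 55.3 and 53.9 TPM at 25 DAP and 88.3, 121 and 118 TPM at 35 DAP (log2 change 0.97, SE 0.13, adjusted p = 5.93e-05). NAC rises numbered 5 without replicate 2 at 35 DAP or 25 DAP and 4 without replicate 3 at 35 DAP, and NAC falls 1 without replicate 1 at 25 DAP. WRKY falls numbered 3 without replicate 2 at 35 DAP and 4 without replicate 1 or 2 at 25 DAP, and WRKY rises 2 or 3 without any of replicates 2 and 3 at 35 DAP and 1, 2 and 3 at 25 DAP. MYB falls numbered 4 without replicate 2 at 35 DAP and 3 without replicate 1 at 25 DAP.

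Of 109 auxin genes 19 rose and 13 fell (median -0.03, 29.4% called against 20.5% of all genes). The auxin efflux carrier MELO3C013710.2, of the PIN-type exporters, read 50.6, 44.6 and 44 TPM at 25 DAP and 134, 234 and 185 TPM at 35 DAP (log2 change 1.93, SE 0.28, adjusted p = 0.000101). It had been at 215 ± 58.3 TPM at 15 DAP and was at 11.4 ± 4.13 TPM at 45 DAP. The dormancy/auxin associated gene MELO3C022686.2 read 55.8, 63.1 and 54 TPM at 25 DAP and 145, 279 and 213 TPM at 35 DAP (log2 change 1.81, SE 0.26, adjusted p = 9.83e-05). In both genes replicate 2 at 35 DAP was the highest library. Falls numbered 6 without replicate 1 at 35 DAP and 8 without replicate 3 at 35 DAP.

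Antioxidant and water channel genes had calls both ways. Of 210 antioxidant genes 33 rose and 17 fell (median -0.07). Called were 23.8% of them and 22.2% of the aquaporins below, close to the 20.5% of all genes. Among 42 peroxidases, a subset chosen after the values were seen, 9 rose and 3 fell (median -0.19). Peroxidase MELO3C009329.2, of enzymes that oxidise phenols in the wall, read 97.1, 164 and 70.9 TPM at 25 DAP and 1079.9, 555 and 719 TPM at 35 DAP (log2 change 2.85, SE 0.33, adjusted p = 1.5e-05), while in WT it averaged 4.24 TPM or less from 25 DAP on. Of 27 aquaporins 5 rose and 1 fell, among them MELO3C024483.2 at 22.5, 8.09 and 12 TPM at 25 DAP and 65.9, 96.5 and 93.7 TPM at 35 DAP (log2 change 2.60, SE 0.34, adjusted p = 4.19e-05) and TIP1-1-like MELO3C009377.2, of the vacuole membrane type, at 16.8, 17.8 and 22.9 TPM at 25 DAP and 171, 84.9 and 139.6 TPM at 35 DAP (log2 change 2.67, SE 0.49, adjusted p = 0.000876). Tubulin beta chain MELO3C002830.2 read 114, 96.9 and 107 TPM at 25 DAP and 336, 528 and 453 TPM at 35 DAP (log2 change 2.02, SE 0.34, adjusted p = 0.000464). All libraries at 35 DAP were above those at 25 DAP in these 4 genes. Antioxidant rises numbered 17 to 21 and falls 8 to 11 without some single libraries: rises without replicate 2 or 3 at 35 DAP or 1 or 2 at 25 DAP, falls without replicate 3 at 35 DAP or 1 or 2 at 25 DAP.

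Histones, which pack DNA into chromatin, had 12 of 37 genes higher and 0 lower, with a median of 0.06 over the whole list. Calls made up 32.4% of it, against 20.5% of all genes. Without replicate 2 at 35 DAP 2 were lower, and without replicate 3 at 25 DAP 1 was. Histone H1 MELO3C007889.2 read 477, 439 and 541 TPM at 25 DAP and 1416, 1239.7 and 1346 TPM at 35 DAP (log2 change 1.46, SE 0.20, adjusted p = 5.93e-05), H1-like MELO3C004394.2 read 191, 171 and 181 TPM at 25 DAP and 437, 330.2 and 379 TPM at 35 DAP (log2 change 1.07, SE 0.14, adjusted p = 5.14e-05) and H2A MELO3C020706.2 read 149, 141 and 144 TPM at 25 DAP and 243, 236 and 233 TPM at 35 DAP (log2 change 0.71, SE 0.09, adjusted p = 1.84e-05). The ages were separate and replicates tight, with H2A differing by under 10 TPM within each age. Cytosolic ribosomal proteins had few calls: 7 of 175 rose and 8 fell, 8.57% against 20.5% of all genes, with a median of -0.06. Without single libraries the ribosomal rises numbered 2 to 4 (replicate 2 at 35 DAP, 1 or 3 at 25 DAP) and the falls 2 to 4 (replicate 2 or 3 at 35 DAP, 2 at 25 DAP).

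The remaining lists are given by their counts alone, beside 10.8% higher and 9.75% lower over all genes tested. Cytochrome P450 genes, a large family of oxidases, had 24 of 131 higher and 13 lower (median 0.24), flavonoid genes 4 of 25 and 1, protease and protease inhibitor genes 9 of 149 and 17, and defence genes 13 of 144 and 17. Gibberellin, cytokinin and brassinosteroid genes had 4 of 54 higher and 6 lower, MADS-box factors 3 of 36 and 1, clock genes 4 of 17 and 2, carotenoid cleavage genes 0 of 7 and 1, and cell cycle and cytoskeleton genes 17 of 209 and 28. Without single libraries several of these counts moved by more than 1.5 times. Protease falls numbered 8 and 9 without replicate 1 at 25 or 35 DAP, and rises 5 without replicate 2 at 25 DAP. Defence rises numbered 6 without replicate 2 at either age and 8 without replicate 3 at 35 DAP, and defence falls 9 to 11 without any 1 library except replicate 2 at 35 DAP. Cell cycle rises numbered 10 or 11 without replicate 1 or 2 at 25 DAP or 3 at 35 DAP. Hormone falls numbered 2 without replicate 1 at 25 DAP and 3 without replicate 3 at 35 DAP. Clock rises numbered 2 without replicate 2 at 35 DAP or 1 or 2 at 25 DAP, and clock falls 0 or 1 without any 1 library. MADS-box rises numbered 5 without replicate 1 at 35 DAP, and falls 3 without replicate 2 there and 0 without replicate 3 there or 2 at 25 DAP. Flavonoid falls numbered 2 without replicate 2 at 35 DAP, and rises 1 in the fit to these 6 libraries. The clock list includes the APRR2-type regulator above, which is no core clock gene.

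**Figure D3:**
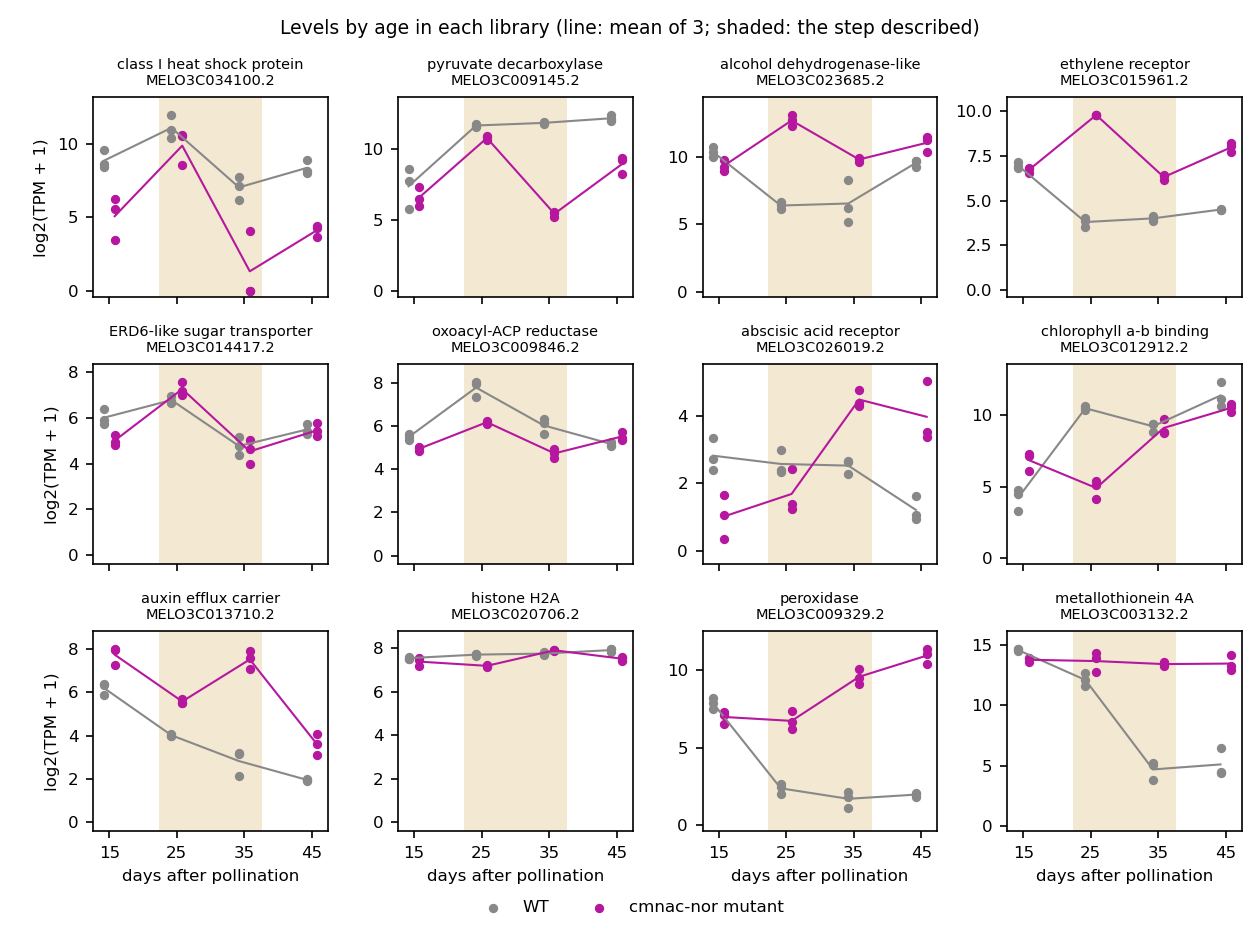
Levels of 12 genes at each age in every library. The x axis is days after pollination, the y axis log2(TPM + 1), points are libraries, lines join the means of 3, and the shaded band spans 25 to 35 DAP. In the mutant the heat shock gene, pyruvate decarboxylase, the alcohol dehydrogenase-like gene and the ethylene receptor peak at 25 DAP, the auxin efflux carrier has its low point of the first 3 ages there, and metallothionein 4A stays level while it falls in WT.

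More genes were called in WT flesh over the same 10 days. In WT 4385 genes rose (24.8% of genes tested) and 2488 fell (14.1%), and the steps share no library. That balance turned with scaling, to 3140 higher and 3709 lower after median-of-ratios scaling and 3300 and 2938 after quantile normalization. Of the 1901 genes that rose in the mutant, 642 also rose in WT, 33.8% of the mutant list and 14.6% of the WT list, and 326 fell in WT (17.1% and 13.1%). Of the 1721 that fell in the mutant, 259 fell in WT (15% and 10.4%) and 310 rose (18% and 7.07%). The test of the step difference, mutant minus WT, called 6023 genes (34.1% of genes tested), 2326 higher (13.2%) and 3697 lower (20.9%). That split depended on scaling too. Higher calls were 38.6% of all calls as deposited, 53.3% after median-of-ratios scaling (3236 higher, 2832 lower) and 49.8% after quantile normalization (2814 and 2837), and the median difference was -0.17, -0.01 and -0.03. Of the 3622 genes that changed in the mutant, 2035 (56.2%) also had a called step difference.

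Ribosomal proteins differed between the genotypes. In WT 137 of 175 rose and 1 fell (median 0.77), and the step difference was called lower for 134 and higher for 1 (median -0.86). After median-of-ratios scaling it was lower for 116 and after quantile normalization for 126. Photosynthesis genes went the other way, with 6 of 82 higher and 32 lower in WT (median -0.66) and 31 step differences higher and 5 lower (median 1.05), or 36 and 33 higher in the other scalings. Heat shock genes had 91 of 241 higher and 32 lower in WT. The class I gene MELO3C034100.2 fell in both genotypes and further in the mutant, by -8.50 against -4.03 (step difference -4.47, SE 1.26, adjusted p = 0.0108).

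**Figure D4:**
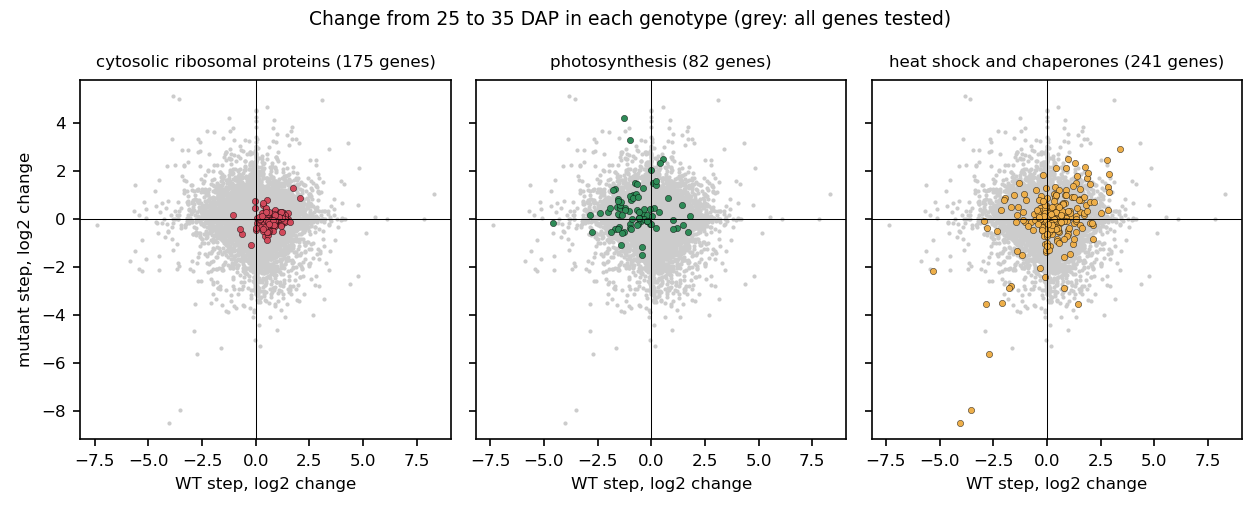
Change of each gene from 25 to 35 DAP in WT (x axis) and in the mutant (y axis), both log2 changes. Grey points are the 17658 genes tested and coloured points the members of 3 lists. Most ribosomal proteins lie to the right at WT values above 0 and near 0 in the mutant, most photosynthesis genes lie left of 0 in WT, and 3 heat shock genes lie far below the other members in the mutant.

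Single genes with the widest step differences showed both patterns. Metallothionein-like protein 4A MELO3C003132.2, a cysteine-rich metal binder, stayed between 6887 and 20251 TPM in the mutant without a call (log2 change -0.25, SE 0.50, adjusted p = 0.776), and fell in WT from 4540 ± 1674 to 27.2 ± 12.2 TPM (step difference 7.13, SE 0.71, adjusted p = 1.5e-06). The ACC oxidase homolog MELO3C022978.2 rose in the mutant and fell in WT from 576 ± 315 to 13.2 ± 13.4 TPM (step difference 7.04, adjusted p = 7.88e-07). The SWEET gene MELO3C026184.2 and the kinase MELO3C035201.2 fell in WT by -3.83 and -3.57, the widest step differences of all named genes in that direction (8.92 and 8.53).

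In the other direction WT rose and the mutant did not. The cyclin-dependent kinase inhibitor gene MELO3C023871.2 was listed at 0 in 5 of the 6 mutant libraries and at 7.75 TPM in replicate 2 at 35 DAP, and went from 7.84 ± 6.89 to 1785 ± 550 TPM in WT (step difference -7.26, SE 1.74, adjusted p = 0.00367, but 0.0749 at a pseudocount of 0.1). ZAT12-like MELO3C023840.2, a zinc finger factor of stress responses, went from 6.49 ± 5.53 to 189 ± 104 TPM in WT and read 74.4, 43.2 and 27 TPM at 25 DAP and 30.3, 0.12 and 16.6 TPM at 35 DAP in the mutant (step difference -7.18). The NRT1/PTR 7.3-like transporter MELO3C006241.2 rose in WT by 2.96 and fell in the mutant from 65.2, 41.8 and 36.1 to 4.85, 3.18 and 11.9 TPM (step difference -5.75).

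The step was also set beside the earlier WT step from 15 to 25 DAP. In that step 3275 genes rose (18.5% of genes tested) and 7915 fell (44.8%). Of the genes that rose in the mutant from 25 to 35 DAP, 377 rose in it (19.8% of the mutant list, 11.5% of the WT list) and 961 fell (50.6% and 12.1%). Of those that fell in the mutant, 803 fell in it (46.7% and 10.1%) and 328 rose (19.1% and 10%). The difference between these steps was called for 9310 genes (52.7% of genes tested), 6395 higher and 2915 lower, or 4942 and 4526 after median-of-ratios scaling and 4360 and 4704 after quantile normalization. The chlorophyll a-b binding protein MELO3C012912.2 rose in both, from 19.2 ± 8.98 to 1452 ± 149 TPM in WT, while pyruvate decarboxylase MELO3C009145.2 rose in that WT step from 219 ± 165 to 3203 ± 212 TPM and fell in the mutant.

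The most abundant transcript of the mutant at both ages was the translationally-controlled tumor protein homolog MELO3C006670.2, chosen after its values were seen, at 12746, 14959 and 17433 TPM at 25 DAP and 17552, 27320.1 and 20571 TPM at 35 DAP (log2 change 0.52, SE 0.25, adjusted p = 0.153). The libraries did not overlap, but the change did not pass the test. Genes that went from under 1 TPM in every library to 10 TPM or more in every library, or the reverse, were few, with 1 in the first direction and 3 in the second. The first was an unannotated gene, and 1 of the 3 was the 17 kDa phloem lectin MELO3C003066.2, a sugar-binding protein of the phloem, at 12.7, 11.9 and 16.2 TPM at 25 DAP and 0.84, 0.97 and 0.81 TPM at 35 DAP (log2 change -2.95, SE 0.38, adjusted p = 4.03e-05).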

How the data were processed

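The series holds 24 RNA-seq libraries of melon fruit flesh, in 8 groups of 3 taken from the sample titles. The deposited table was treated as TPM made by the authors. Neither its header nor the labels state a unit, so this rests on the values, which carry decimals and summed to 930772 to 948301 in the 6 mutant libraries compared. HISAT2, TopHat2, Cufflinks and StringTie are named, per the submitters' processing notes. What each did, its version, the build and the gene annotation were not given in the sources used here. TPM keep no read depth, so no counting interval is given and no count model was used, and a few abundant transcripts lower all other values of a library.

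Genes at 1 TPM or more in at least 3 of the 24 libraries were tested with limma-trend (limma 3.58.1, R 4.3.3) on log2(TPM + 1), a scale that understates changes of low genes. All 24 libraries entered 1 model of 8 group means without covariates, so the groups share 1 estimate of the spread. Relative to the pooled spread the spread within the mutant groups was 0.901 at 25 DAP and 0.953 at 35 DAP. The two-sided p-values were adjusted over all genes tested by the Benjamini-Hochberg method, with 0.05 as the threshold. The fit was tested on simulated data. Alternatives were pseudocounts of 0.1 and 0.5, no filter or one of 5 TPM, 2 other scalings, a fit to the groups compared alone, a replicate block and each replicate left out.

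The comparison, the 40 gene lists, made from words in the deposited descriptions, and the rule for named genes were chosen with earlier results of these data known. The rule took CmNAC-NOR, the 10 largest changes in each direction, up to 3 called members per list in order of adjusted p, members of 5 ripening lists at 100 TPM or more, and the 5 largest step differences in each direction. The largest changes needed a description, no overlap between the groups' libraries and a mean of 10 TPM in the higher group, and called list members needed that mean. It gave 164 genes, of which 94 are printed with their identifiers, and 7 more were chosen after their values were seen. No identifier matched the RefSeq gene table (0 matches), so no position or sequence is given.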

Additional observations from a re-analysis of the deposited data

Results flagged for a closer look

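Of the 101 genes named above, 73 changed differently in the mutant and in WT from 25 to 35 DAP by the test of the step difference (limma, mutant minus WT, adjusted over all genes tested), 39 higher and 34 lower, with adjusted p up to 0.0388. The values here are these log2 step differences. The named genes were picked for large or called changes, some of them for this difference, so the count says nothing of other genes. Causes were not tested.

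Of the 73, 64 were called under every alternative in which they were tested and 0 changed sign. The other 9 lost their call under at least 1. The ACC synthase MELO3C021182.2 lost it under 12 of 20 alternatives, 9 of them single libraries left out, with adjusted p from 0.00136 to 0.102. MELO3C001614.2 lost it at a pseudocount of 0.1 and without any 1 of 7 libraries (0.00917 to 0.105), MELO3C027124.2 without any 1 of 6 (0.00422 to 0.0733), MELO3C017181.2 without replicate 1 of the mutant at 25 DAP (0.00661 to 0.0585), and MELO3C027057.2 and MELO3C010910.2 under 5 alternatives each, 4 of them single libraries (0.00165 to 0.0666 and 0.00728 to 0.0726). The receptor MELO3C006451.2 lost it with median-of-ratios scaling (0.00431 to 0.0511), and MELO3C003408.2 and MELO3C023871.2 at a pseudocount of 0.1 (5.82e-05 to 0.188 and 0.00177 to 0.0749).

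Heat shock and fermentation genes with a lower change in the mutant were MELO3C034100.2 (-4.47), MELO3C001614.2 (-4.47), MELO3C027124.2 (-2.92) and the pyruvate decarboxylases MELO3C009145.2 (-5.50) and MELO3C007227.2 (-1.23), with the alcohol dehydrogenase-like MELO3C023685.2 (-3.04). Named chaperone genes with a higher change in the mutant were MELO3C020589.2 (0.98), DnaJ MELO3C024324.2 (1.68), HSP90 MELO3C011021.2 (1.20) and the heat stress factor MELO3C015804.2 (1.50). Over the whole heat shock and chaperone list the difference was higher for 35 of 241 genes and lower for 65.

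The named ethylene genes were mostly lower. The receptors MELO3C015961.2 and MELO3C006451.2 differed by -3.68 and -1.07, the ACC oxidases MELO3C004619.2 and MELO3C014437.2 by -4.76 and -3.35, the ACC synthases MELO3C016340.2 and MELO3C021182.2 by -2.79 and -1.78, and the response factors MELO3C017940.2 and MELO3C007242.2 by -3.15 and -2.23. The ACC oxidase homolog MELO3C022978.2 (7.04) and the response factor MELO3C016780.2 (1.69) were higher. Over the whole lists, the lean of 2 depended on scaling. Perception and signalling had 2 of 16 differences higher and 5 lower, or 3 and 3 after median-of-ratios scaling. AP2/ERF factors had 10 of 108 higher and 17 lower, or 15 and 16 in that scaling. Ethylene synthesis had 2 of 28 higher and 9 lower, or 3 and 8.

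Abscisic acid receptors MELO3C026019.2 (2.85), MELO3C003408.2 (1.97) and MELO3C013854.2 (2.01) were higher and the dioxygenase MELO3C027057.2 (-2.87) lower. Of the pigment genes the chlorophyll a-b binding proteins MELO3C012912.2 (5.46) and MELO3C002727.2 (4.28), PSB27-H1 MELO3C018748.2 (1.91), STAY-GREEN MELO3C005616.2 (1.20) and MELO3C020913.2 (1.92) were higher.

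In lipid and defence hormone genes the desaturase MELO3C008413.2 (-4.58), the carboxylase MELO3C022793.2 (-1.31) and allene oxide synthase MELO3C010910.2 (-2.12) were lower, and lipoxygenase MELO3C014482.2 (3.54) and salicylic acid-binding protein 2 MELO3C018425.2 (2.64) higher. In wall genes the methyltransferase MELO3C014091.2 (-4.23), the ammonia-lyase MELO3C017809.2 (-3.45), the acetylesterase MELO3C006917.2 (-2.80), the lyase-like MELO3C005746.2 (-2.42) and expansin MELO3C017181.2 (-2.23) were lower, and beta-galactosidase MELO3C015470.2 (1.54), extensin-like MELO3C017856.2 (4.11) and peroxidase MELO3C009329.2 (3.52) higher.

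Sugar and starch genes gave 8.92 for the SWEET MELO3C026184.2, 3.12 for the invertase inhibitor MELO3C022457.2, -2.60 for sucrose synthase MELO3C015552.2, -1.43 for alpha-galactosidase MELO3C011770.2 and -1.41 for isoamylase MELO3C030418.2. Calcium, transport and metal genes gave 8.53 for the kinase MELO3C035201.2, 5.99 and 7.19 for the EF-hand genes MELO3C010868.2 and MELO3C010869.2, 2.31 and 3.82 for the aquaporins MELO3C024483.2 and MELO3C009377.2, -5.75 for the NRT1/PTR gene MELO3C006241.2 and 7.13 for metallothionein 4A MELO3C003132.2.

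Regulators that were higher included bHLH114-like MELO3C033737.2 (4.23), MARD1 MELO3C017582.2 (4.87), RADIALIS-like 1 MELO3C012508.2 (3.28), bHLH71 MELO3C003421.2 (2.46), bHLH48 MELO3C009653.2 (1.75), the MYB MELO3C020701.2 (3.28), the WRKY MELO3C014305.2 (1.78) and EARLY FLOWERING 3 MELO3C010769.2 (1.14). Lower were the putative factor MELO3C004098.2 (-5.02), IAA16-like MELO3C025308.2 (-5.62), early nodulin 93 MELO3C004522.2 (-3.97), the NAC MELO3C017754.2 (-4.38), the WRKY MELO3C011432.2 (-2.61), ZAT12-like MELO3C023840.2 (-7.18) and the kinase inhibitor gene MELO3C023871.2 (-7.26). The auxin genes MELO3C013710.2 (3.12) and MELO3C022686.2 (2.56) and the histones MELO3C004394.2 (0.66) and MELO3C020706.2 (0.67) were higher. The histone list as a whole did not go this way. In WT 17 of 37 histones rose and 0 fell (median 0.66). Over the list the difference was higher for 5 and lower for 7 (median -0.44), or 6 and 6 after median-of-ratios scaling.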

How the results depend on the processing

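The count of genes called in the mutant step was 3622 as reported and 2703 to 4103 over the alternatives that kept all replicates. The lowest of these came from the fit to the 6 libraries alone, which called 1461 higher and 1242 lower and shared 2188 calls with the reported set. Leaving out 1 replicate in turn gave 2459 to 3191 calls, with 1097 to 1517 lower. For the difference from the earlier WT step the number lower rose to 4526 with median-of-ratios scaling and to 4704 with quantile normalization, from 2915 as reported, and 2588 to 3095 without single replicates. With the replicate number as a block 3372 genes were called. Same-numbered libraries of both ages deviated from their group means at correlations of -0.147, -0.121 and -0.059. With 3 libraries in a group such values cannot decide whether the numbers pair the samples, and the labels do not say.

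Of 90 named genes called in the mutant step, 83 were called under every alternative in which they were tested and no direction turned. ACC synthase MELO3C016340.2 did not pass the filter of 5 TPM. The other 7 are named with their alternatives in the text. Of the 80 counts of list members by direction, 33 moved by more than 1.5 times in the fit to the 6 libraries and 14 to 31 without single replicates, mostly counts of a few genes. Where a replicate was left out, the 2 libraries that stayed in its group were taken to vary like those of the other groups. The causes of these shifts were not tested. The depth of the libraries is unknown, so its effect on low values cannot be given.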
